A study of Mus musculus with 32 samples.

Results

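Immunoglobulin variable segments are the germline gene pieces that encode the antigen-binding end of an antibody chain. The segments described here were all genes with an own Ensembl identifier whose symbol starts with Ighv (heavy chain), Igkv (kappa light chain) or Iglv (lambda light chain) and whose mean level over 16 mouse lungs was at least 0.1 FPKM, a unit that scales fragment numbers by transcript length and library depth. That rule gave 55 segments, 24 Ighv and 31 Igkv and 0 Iglv, out of 54640 features in the table. GENCODE M21, an annotation of the mouse genome, lists 348 variable segments, of which 240 had an identifier of their own in the table and 132 were above 0 in at least 1 mouse. The other 108, among them all 3 lambda segments, were not analysed here. The members were selected on their mean FPKM over all 16 mice, so the level of the set as a whole is given as a description.

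Lung RNA was sequenced from wild-type male C57BL/6J mice, 6 to 8 weeks old when bought, in 4 groups of 4 mice with separate animal identifiers. Control mice received neither dust nor drug. The second group received WTCPM, particulate matter from the World Trade Center dust. The third received WTCPM and rosoxacin, a quinolone antibacterial, at 5 mg/kg, and the fourth WTCPM and dexamethasone, a synthetic glucocorticoid, at 0.1 mg/kg. The sources used here do not give the time after exposure, or say whether the control mice received a vehicle. Each library was read in 2 lanes, and the lanes were averaged to 1 value per mouse.

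In each developing B cell, recombination joins 1 variable segment to joining segments, with a diversity segment between them in the heavy chain, so that a cell makes 1 heavy and 1 light chain. Resting B cells transcribe the joined segment, and plasma cells, which secrete antibody, do so at a much higher rate. In bulk lung the summed level of the segments therefore follows both how many B-lineage cells there are and how much antibody RNA each holds. These quantities cannot be told apart here. Mouse segments are named by family and position, so that Ighv1-19 belongs to family 1 of the heavy chain.

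Most genes of the B-cell programme could not be set beside the segments. Of 24 B cell genes listed, 0 had an own identifier, and so did 0 of 8 lung epithelial genes and 0 of 8 macrophage genes, so the labelled tissue was not checked by its markers. The table assigns 99.9% of the summed FPKM to assembled loci without a gene name, and 0.114% to all annotated identifiers. Of 13 constant region genes, which encode the rest of the antibody chain, only Ighe had an identifier, and its mean was 0.00250 FPKM. Of 16 diversity and joining segments only Ighd1-1 had one, and of 14 plasma cell genes only Tnfrsf17, a survival receptor of plasma cells. Of the 18 genes of the germinal centre, recombination and B cell help, 6 had an identifier and only Cd40lg, the T cell ligand that activates B cells, was tested. Neither Cd40lg nor Ighd1-1 passed the test in any comparison.

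The values are low and rest on few reads. For genes with 1 exon and 1 transcript, the level times the length gathered at a step that was estimated for each library. Over all libraries 6.61% of these values lay at the step, and 4.80% and 2.53% at fractions of it. In every library more values lay at 2 steps than at 1 step. The counts ran from 166 against 165 (WTCPM mouse 4, lane 1) to 192 against 119 (rosoxacin mouse 2, lane 1). The size of the unit, and so the read numbers that follow, are therefore uncertain. With that step read as 1 aligned 50-base read, the libraries held about 35000000 to 55900000 reads a mouse, and the 35 segments with 1 transcript had a median of 1.23 such read steps in the median mouse. Summed over 16 mice, a segment had 23.6 to 198 steps (median 51.5). Of 880 segment and mouse values, 348 (39.5%) were listed at 0, and only Ighv1-76 was above 0 in every mouse. A value of 0 in 1 mouse at this depth does not show that the segment was unused.

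Many segments are near copies, and a 50-base read cannot always be placed in 1 of them. Among all annotated segments, a median of 30.7% of a member's 50-base runs occurred in another segment as well. This share was at least 50% in 9 members, 2 Ighv and 7 Igkv, with 74.3% in Igkv4-59 as the highest. It was 0 in Ighv12-3, Igkv4-90, Igkv8-16 and Igkv14-100. Levels of single segments that share runs are therefore uncertain, whereas the chain sums do not depend on how reads are divided within a chain's members. The sums can still depend on reads shared with segments that are not members, such as the partners of Ighv1-19 listed below. The coding sequences of 3 results below show the range. They are from GENCODE M21 transcripts on GRCm38, written 5′ to 3′ in the segment's own direction, and positions count from the first coding base.

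Igkv13-84 (chr6:68939602-68940067, plus strand) and Igkv13-85 (chr6:68930269-68930734, minus strand) are the members of family 13, and Igkv13-84 is 1 of the 2 segments that passed a test. The capitals mark the 13 of 347 coding bases that differ (96.3% identical). No base differs after position 154, so reads of the last 193 bases fit both copies. Bases 1 to 200 are printed.
Igkv13-84: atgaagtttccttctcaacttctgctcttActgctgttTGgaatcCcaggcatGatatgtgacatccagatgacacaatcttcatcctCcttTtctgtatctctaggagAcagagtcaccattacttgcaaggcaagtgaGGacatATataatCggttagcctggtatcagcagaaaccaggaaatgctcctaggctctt
Igkv13-85: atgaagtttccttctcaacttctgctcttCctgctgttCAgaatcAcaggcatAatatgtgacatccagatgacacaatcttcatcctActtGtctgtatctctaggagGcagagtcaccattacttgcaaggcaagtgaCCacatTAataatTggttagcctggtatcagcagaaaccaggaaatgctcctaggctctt

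Igkv12-44 (chr6:69814631-69815154, minus strand) and Igkv12-41 (chr6:69858420-69858884, minus strand) rank 1 and 3 among the kappa segments by mean. They differ at 15 of 347 bases (95.7% identical), spread up to position 337, and share 92 of 298 runs of 50 bases. Printed are bases 100 to 347, with 13 of the differing bases in capitals.
Igkv12-44: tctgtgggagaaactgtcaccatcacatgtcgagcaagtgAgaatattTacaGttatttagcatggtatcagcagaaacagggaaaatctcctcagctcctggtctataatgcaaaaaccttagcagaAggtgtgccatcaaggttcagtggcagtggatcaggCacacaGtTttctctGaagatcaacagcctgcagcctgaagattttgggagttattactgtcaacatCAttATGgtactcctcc
Igkv12-41: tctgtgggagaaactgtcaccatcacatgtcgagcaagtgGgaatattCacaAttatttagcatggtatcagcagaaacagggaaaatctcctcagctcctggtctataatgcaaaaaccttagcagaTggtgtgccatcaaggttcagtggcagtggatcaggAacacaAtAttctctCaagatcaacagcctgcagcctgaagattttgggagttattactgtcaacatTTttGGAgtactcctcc

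Ighv1-19 is the other segment that passed a test. Its coding part lies at chr12:114708648-114709081 on the minus strand. Only 50-base runs that lie wholly within this coding part were searched. Capitals mark the 185 of 348 bases that lie in no such run found in another segment. Bases 1 to 300, which hold them all, are printed. The lower-case parts are shared with 1 or more of Ighv1-17, Ighv1-22, Ighv1-26, Ighv1-33, Ighv1-36 and Ighv1-39. Over all transcript sequence of the gene, most shared runs were with Ighv1-34, so capitals can lie in runs that reach beyond the coding part.
Ighv1-19: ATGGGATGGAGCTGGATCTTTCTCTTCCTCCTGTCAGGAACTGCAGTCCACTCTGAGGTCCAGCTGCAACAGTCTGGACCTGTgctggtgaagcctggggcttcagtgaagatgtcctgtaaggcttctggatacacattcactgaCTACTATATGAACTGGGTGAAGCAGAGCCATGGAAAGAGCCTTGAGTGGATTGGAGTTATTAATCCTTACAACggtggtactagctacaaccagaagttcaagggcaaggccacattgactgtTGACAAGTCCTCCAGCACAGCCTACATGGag

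The heavy chain segments lie on the minus strand of chromosome 12, between bases 113611187 and 116000461 (GRCm38), and belong to 8 families. Their means over 16 mice ran from 0.105 to 0.424 FPKM (median 0.214). Family Ighv1 had 13 of the 24 members and 61.3% of the summed mean level. Ighv2, with 3 members, held 12.4%, and Ighv8-12, alone in its family, held 7.50% and had the highest mean. Next in order came Ighv1-81 (0.412), Ighv1-76 (0.408), Ighv1-19 (0.381), Ighv1-59 (0.354), Ighv1-50 (0.298), Ighv1-42 (0.287) and Ighv1-4 (0.285). Each of these neighbours in the order differed by less than the spread between mice. At the threshold, Ighv5-9 stood just inside with 0.105 FPKM and Ighv2-6 just outside with 0.0926, and both were highest in the first control mouse. Ighv1-2 and Ighv1-21 are annotated as pseudogenes, and Ighv1-2 overlaps the microRNA gene Mir7094-1 on the same strand.

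The kappa segments lie on chromosome 6 between bases 67724902 and 70704177, 12 on the plus and 19 on the minus strand, in 11 families. Their means ran from 0.102 to 0.728 FPKM (median 0.171). Family Igkv4 was the largest, with 12 members and 30.5% of the summed mean, followed by Igkv12 (2 members, 17.2%), Igkv3 (4 members, 14.6%), Igkv6 (3 members, 9.68%), Igkv17-127 (7.90%) and Igkv13 (2 members, 7.17%). By mean, the order was Igkv12-44 (0.728), Igkv17-127 (0.555), Igkv12-41 (0.481), Igkv3-2 (0.418), Igkv4-55 (0.336), Igkv6-25 (0.310), Igkv3-12 (0.299) and Igkv13-84 (0.289). Igkv14-100 (0.102 FPKM) stood just inside the threshold and Igkv4-79 (0.0962) just outside. Igkv1-108 is annotated as a pseudogene.

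**Figure D1:**
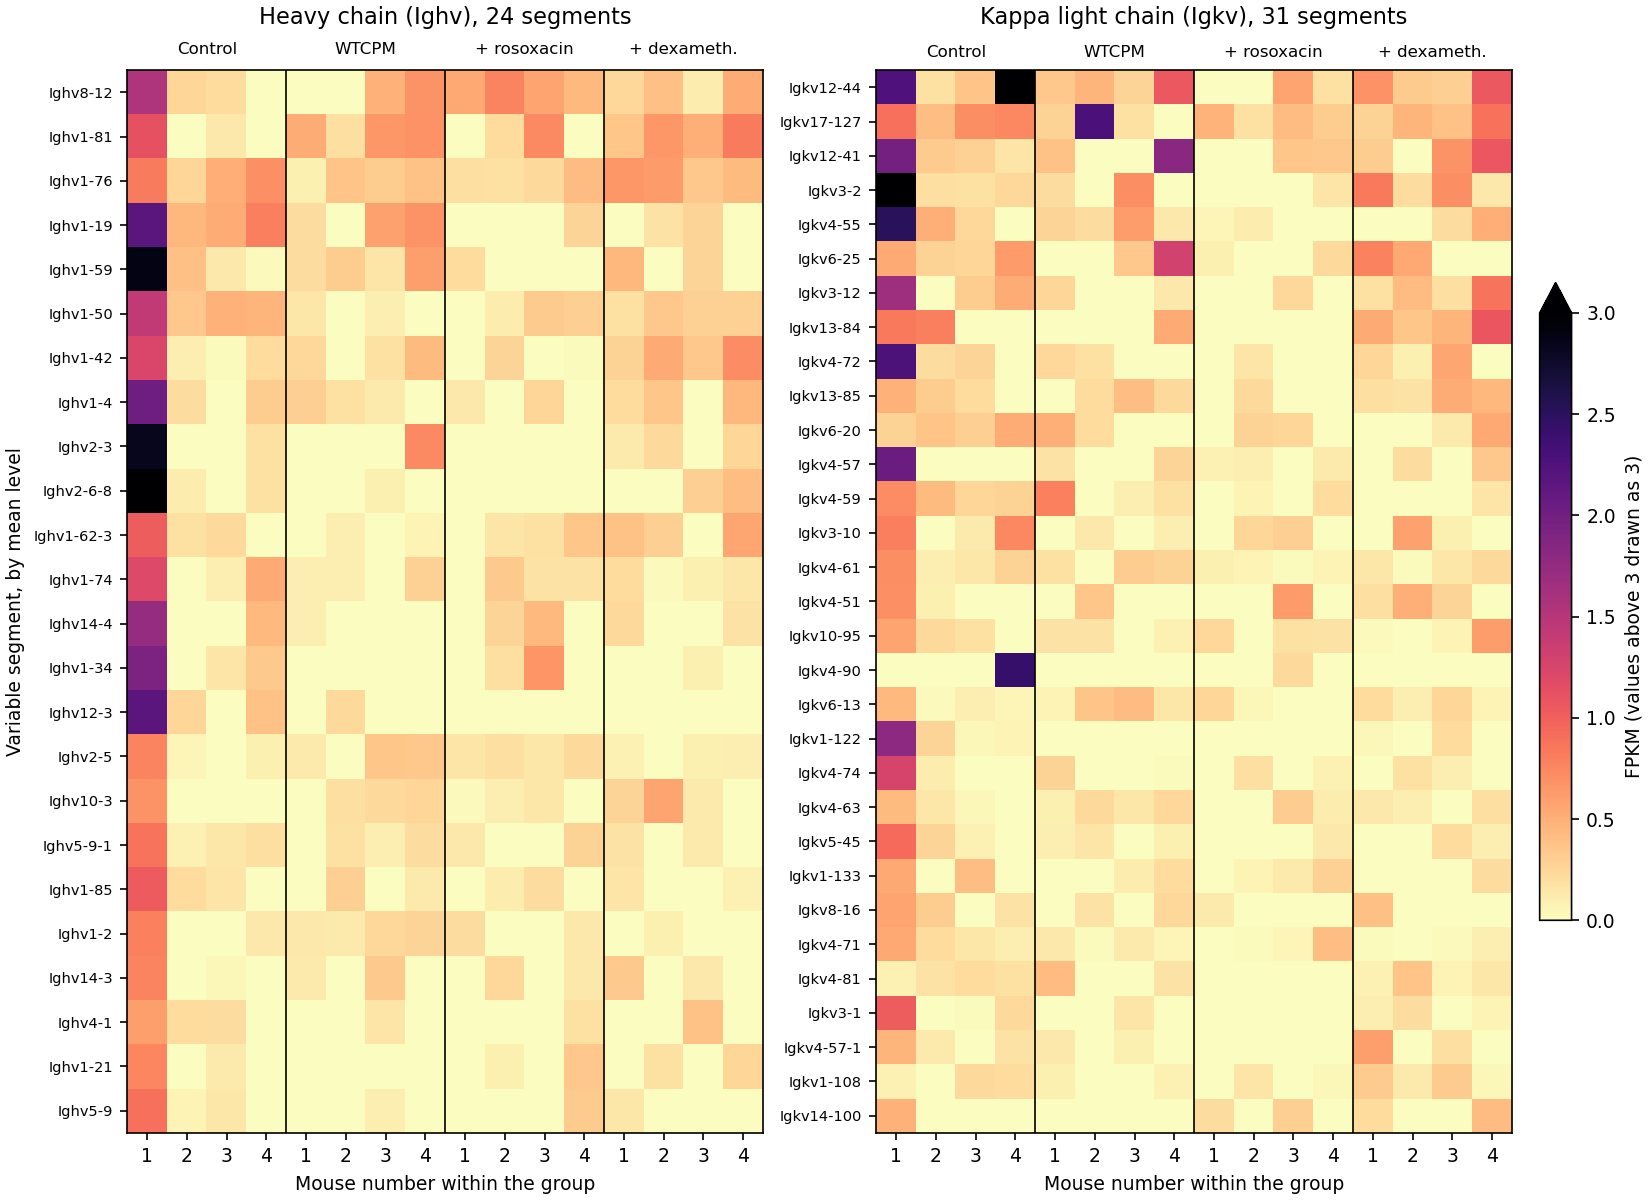
Level of each of the 55 variable segments (rows, ordered by mean) in each of 16 mice (columns, 4 per group), in FPKM on a linear colour scale that ends at 3. The first control mouse is the darkest column in all 24 heavy chain rows and in 19 of the 31 kappa rows.

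The first control mouse stood far above the other 15. Its heavy chain sum was 34.3 FPKM and its kappa sum 31.0, which were 9.18 and 5.72 times the mean of the other mice. It was the highest mouse for 43 of the 55 segments (78.2%), among them all 24 heavy chain segments and 19 of 31 kappa segments. The same mouse was highest for 271 of the other 2694 annotated genes tested (10.1%). The ratio of this mouse to the mean of the other 15 had a median of 6.13 over the segments, against 0.826 over the annotated genes tested. Its libraries held about 47000000 reads as inferred from the step, within the range of the other mice. The lanes gave summed levels of 66.0 and 64.6 FPKM, and 48 of its 54 detected segments were seen in both lanes.

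Part of this follows from the rule, because a high value in 1 mouse can carry a mean past 0.1 FPKM. Without that mouse 36 segments would have been chosen, 15 heavy and 21 kappa, all among the 55. Of those 36 it was still the highest mouse for 25 (69.4%), including 15 of 15 heavy chain segments, with a median ratio of 5.16. Among variable segments below the threshold it was highest for 29 of 77 (37.7%), and among the 17 T cell receptor variable segments for 6 (35.3%). The plasma cell gene Tnfrsf17 was also highest there, at 0.336 FPKM, and was 0.274 in WTCPM mouse 4, 0.0913 and 0.0676 in dexamethasone mice 1 and 4, 0.0455 in control mouse 2, and listed at 0 in the other 11. Lep, a hormone of fat cells, reached 0.978 in that mouse and 0 to 0.381 in the others. Other markers were not high there. The T cell gene Icos was 0.336 FPKM in that mouse and 0.304 to 0.729 in the others. The endothelial gene Prox1 was 0.137 there, the lowest of all mice, and at least 0.311 in the others. What part B cells or other tissue had in the high segment level of the first control mouse was not tested. Each comparison with the control group is given below with and without this mouse.

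**Figure D2:**
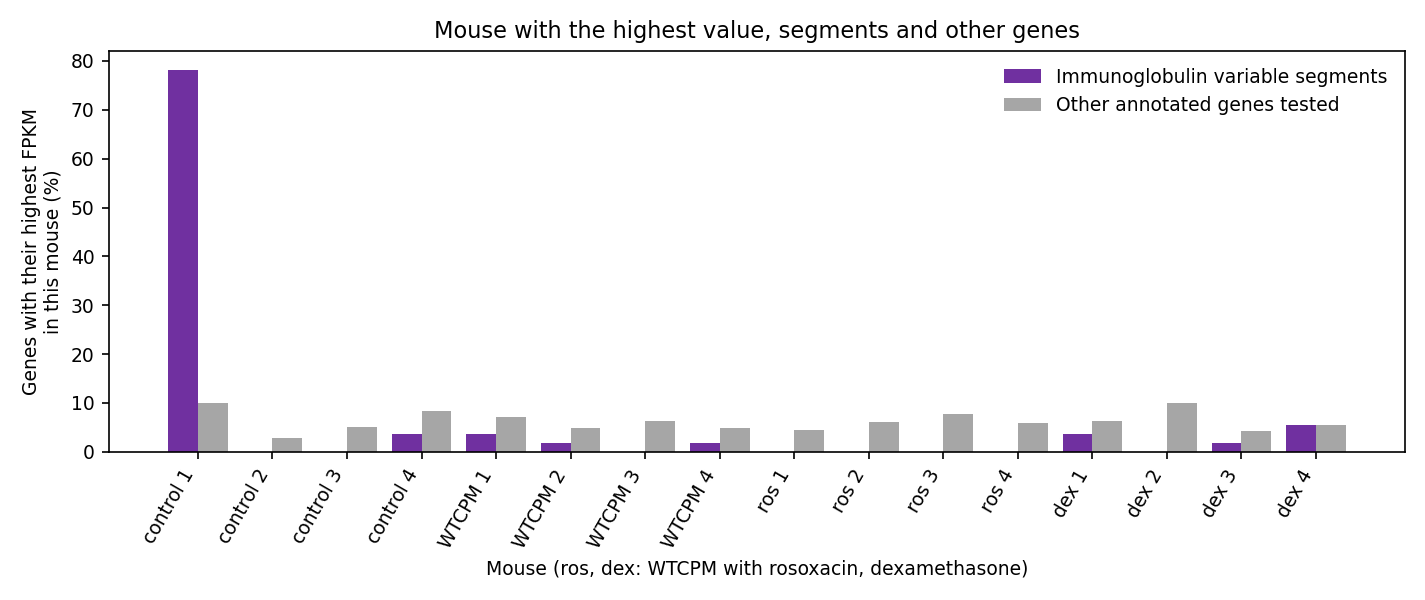
Share of genes (in percent) that had their highest FPKM in each of the 16 mice, for the 55 variable segments and for the other 2694 annotated genes tested. The bar of the first control mouse reaches 78.2% for the segments and 10.1% for the other genes.

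Several segments high in that mouse were low in all others. Ighv2-6-8 was 3.04 FPKM there and at most 0.400 in any other mouse, and Ighv2-3 was 2.83 against at most 0.728. Ighv12-3, which shares no 50-base run with another segment, was 2.16, while it was 0.254 and 0.379 in control mice 2 and 4, 0.225 in WTCPM mouse 2 and listed at 0 in the other 12. Igkv3-2 was 3.11 in the first control mouse and at most 0.835 in another. The levels were also the most even there in both chains, which the selection partly fixes, since 9 heavy and 10 kappa segments, Ighv2-6-8 and Ighv12-3 among them, reached the threshold only through that mouse. The effective number of heavy chain segments (the inverse Simpson index, which equals the number of segments when all have the same share) was 19, against 5.40 to 13.5 in the other mice, and that of kappa segments 19.2, against 4.48 to 16.7. This index falls with fewer reads, as single lanes gave lower values than both lanes together, so it was not compared between groups. The first control mouse had 763 read steps over the single-transcript segments, against 9.07 to 157 in the other mice. Its evenness cannot be told apart from its read number.

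In control mice 2 to 4 the heavy chain sums were 3.17, 3.36 and 4.99 FPKM and the kappa sums 6.07, 5.13 and 11.3. In the WTCPM mice the heavy chain sums were 2.29, 2.27, 4.21 and 5.72, and the kappa sums 5.07, 5.18, 3.98 and 7.36. Apart from the first control mouse, both ranges overlap between these groups. With rosoxacin the heavy chain sums were 1.63, 3.21, 4.04 and 3.58, and the kappa sums 1.59, 1.94, 3.97 and 2.87. The dexamethasone mice had heavy chain sums of 4.48, 4.48, 3.44 and 5.18 and kappa sums of 6.57, 4.92, 6.07 and 9.31.

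**Figure D3:**
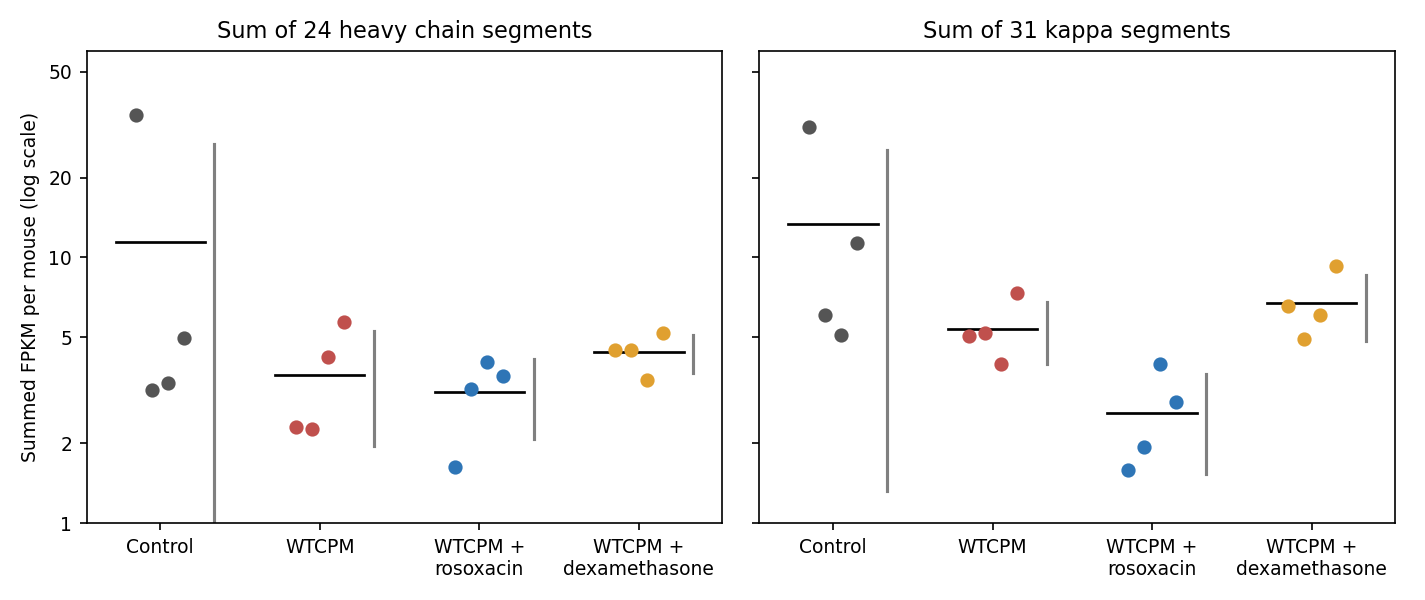
Summed FPKM of the 24 heavy chain and 31 kappa segments in each mouse (points, log scale), with the group mean (black line) and 1 SD either side of it (grey line, which for the heavy chain in controls runs below the axis). The 4 rosoxacin mice have the lowest kappa sums, 1.59 to 3.97, and the first control mouse is highest in both panels.

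As group means, the heavy chain sum was 11.5 ± 15.3 FPKM in controls (SD, n = 4), or 3.84 ± 1.00 without the first mouse (n = 3). It was 3.62 ± 1.67 with WTCPM, 3.12 ± 1.05 with rosoxacin and 4.39 ± 0.714 with dexamethasone (SD, n = 4 each). These means without the first control mouse differ by less than the spread within the WTCPM group. The kappa sum was 13.4 ± 12.1 in controls, or 7.51 ± 3.35 without the first mouse, 5.40 ± 1.41 with WTCPM, 2.59 ± 1.06 with rosoxacin and 6.72 ± 1.86 with dexamethasone. All 4 rosoxacin mice lay below the other 12 for kappa, although rosoxacin mouse 3 (3.97) and WTCPM mouse 3 (3.98) nearly met. After rescaling each library to a common total the gap was 3.79 to 5.34. After median-of-ratios scaling rosoxacin mouse 3 (4.17) exceeded WTCPM mouse 3 (3.70), so the separation holds in some scalings only. The rosoxacin libraries carry library numbers 1 to 4, so that drug and library number cannot be told apart.

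The balance between chains does not depend on the scaling of a library. Heavy chain segments made up 50.6%, 62.3%, 50.5% and 55.6% of the summed level in the rosoxacin mice (54.8% ± 5.58, SD, n = 4). The share was 39.3% ± 9.59 in controls, 39.2% ± 10.2 with WTCPM and 40.0% ± 5.52 with dexamethasone. Both the controls and the WTCPM group reached into the rosoxacin range by 1 mouse each, the controls with 52.5% in mouse 1 and the WTCPM group with 51.4% in mouse 3. The share of rosoxacin mouse 1 rests on few reads, with 9.07 read steps over the single-transcript segments. T cell receptor variable segments, summed over 17, were 1.18, 2.82, 3.23 and 1.31 FPKM with rosoxacin, against 2.08 to 9.31 in the other 12 mice. The number of segments detected was 17 to 30 with rosoxacin and 25 to 54 in the others.

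**Figure D4:**
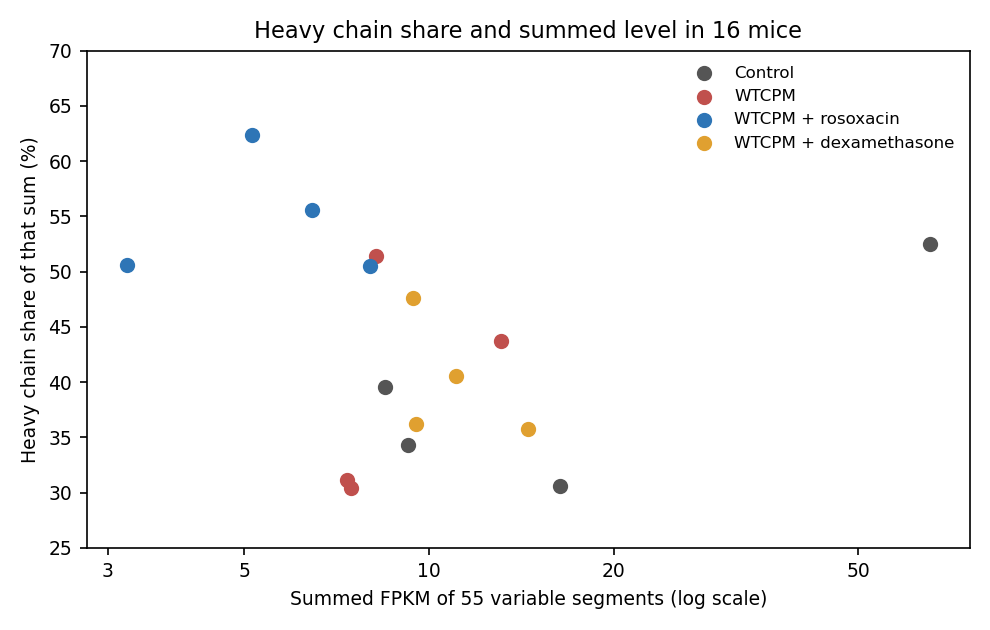
Share of heavy chain segments (percent) in the summed FPKM of the 55 variable segments, against that sum (log scale), 1 point per mouse. The rosoxacin mice have sums of 3.22 to 8.01 FPKM, against 7.36 to 65.3 in the other mice, and shares of 50.5% to 62.3%. The first control mouse lies at 65.3 FPKM and 52.5%.

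Single mice differed in which segment led. In WTCPM mouse 2, Igkv17-127 made up 43.9% of the kappa sum at 2.28 FPKM, with 2.29 and 2.26 in the separate lanes. In control mouse 4, Igkv12-44 made up 32.0% of it at 3.62 FPKM (lanes 3.45 and 3.80), and Igkv4-90 a further 21.4% at 2.43 FPKM (lanes 2.56 and 2.30). Igkv4-90 was listed at 0 in 14 mice and was otherwise seen only in rosoxacin mouse 3, at 0.234 FPKM. The lanes thus gave like values in each case. In those same mice no heavy chain segment reached a like share, since the leading ones were Ighv1-76 with 16.5% in WTCPM mouse 2 and Ighv1-19 with 16.1% in control mouse 4. The heavy chain list is incomplete, however, as 65 of 185 segments had no own identifier.

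Further shares above 20% were seen in 4 mice. Ighv8-12 made up 33.6% of the heavy chain sum in rosoxacin mouse 1 and 23.8% in rosoxacin mouse 2, Igkv17-127 was 29.7% of kappa in rosoxacin mouse 1, and Ighv1-81 was 22.8% of heavy in WTCPM mouse 1. Rosoxacin mouse 1 had 9.07 read steps in all over the 35 single-transcript segments, so its shares rest on very few reads. Igkv12-41 was 24.6% of kappa in WTCPM mouse 4.

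Igkv12-44 was 2.25, 0.176, 0.363 and 3.62 FPKM in controls, 0.344, 0.465, 0.261 and 1.06 with WTCPM, 0, 0, 0.563 and 0.184 with rosoxacin, and 0.685, 0.317, 0.294 and 1.06 with dexamethasone. Its partner in sequence, Igkv12-41, was 1.97, 0.320, 0.285 and 0.164 in controls, 0.380, 0, 0 and 1.81 with WTCPM, 0, 0, 0.356 and 0.348 with rosoxacin, and 0.315, 0, 0.679 and 1.07 with dexamethasone. Both copies were high in control mouse 1, WTCPM mouse 4 and dexamethasone mouse 4, whereas control mouse 4 was the highest for Igkv12-44 and the lowest of the mice above 0 for Igkv12-41. Igkv17-127 was 0.900, 0.407, 0.709 and 0.739 in controls, 0.276, 2.28, 0.184 and 0 with WTCPM, 0.472, 0.181, 0.418 and 0.313 with rosoxacin, and 0.272, 0.460, 0.380 and 0.888 with dexamethasone. Apart from WTCPM mouse 2, all its values lay at or below 0.900.

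Among the heavy chain leaders, Ighv8-12 was 1.56, 0.253, 0.221 and 0 FPKM in controls, 0, 0, 0.486 and 0.671 with WTCPM, 0.548, 0.763, 0.571 and 0.437 with rosoxacin, and 0.246, 0.395, 0.113 and 0.520 with dexamethasone. It was above 0 in all 4 rosoxacin mice and 4 dexamethasone mice, and its groups overlapped. Ighv1-81 was 1.12, 0, 0.137 and 0 in controls, 0.523, 0.197, 0.646 and 0.691 with WTCPM, 0, 0.221, 0.733 and 0 with rosoxacin, and 0.354, 0.651, 0.492 and 0.824 with dexamethasone. Without the first control mouse, all WTCPM and dexamethasone values of Ighv1-81 were above those of the other 3 controls. The share of all genes with such groups was not counted without that mouse. In limma's fit without that mouse Ighv1-81 was 2.11 higher with WTCPM than in controls on the log2(FPKM + 0.1) scale (SE 0.61), with an adjusted p of 0.504. With dexamethasone it was 2.30 higher than in controls (SE 0.61, adjusted p = 0.508), so it passed in neither comparison. Ighv1-76, seen in all mice, was 0.830, 0.252, 0.513 and 0.696 in controls, 0.0871, 0.374, 0.310 and 0.385 with WTCPM, 0.198, 0.177, 0.223 and 0.421 with rosoxacin, and 0.650, 0.632, 0.349 and 0.429 with dexamethasone.

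Group differences were tested for each segment with limma on log2(FPKM + 0.1), in 1 fit over the 16 mice and 2749 annotated genes. P-values were adjusted over all of these genes, with a threshold of 0.05. Below, "all genes" means these 2749 annotated genes, without the assembled loci that hold nearly all FPKM. Shares over loci and genes together are given only for the comparisons in which a segment passed. The 6 comparisons share mice, so their results are not independent. Over them, 2 of the 55 segments passed in 1 comparison each. Differences on this scale understate changes of low genes.

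With WTCPM against control, 0 of the 55 segments passed, as did 0% of the 2749 genes. At an unadjusted p under 0.05 there were 5 segments, all lower with WTCPM, against 5.13% of all genes. Of the segments, 49 had lower and 6 higher fitted values with WTCPM, with a median log2 difference of -0.82, against 0.03 over all genes. Of the 2749 genes, 1279 were lower. Leaving out the first control mouse, the segment counts were 38 and 17 and the median -0.33, while 1475 of the genes were lower. As 19 of the segments entered the list only through that mouse, the counts do not support a difference between the groups.

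Ighv1-50 (chr12:115119748-115120219, minus strand) had the smallest p-value. It was 1.42, 0.341, 0.492 and 0.457 FPKM in controls and 0.150, 0, 0.105 and 0 with WTCPM, so the groups did not overlap. Its log2 difference was -2.19 (SE 0.46, adjusted p = 0.131), and without 1 mouse at a time it was -2.43 to -1.81. With rosoxacin it was 0, 0.106, 0.318 and 0.293, and with dexamethasone 0.179, 0.341, 0.285 and 0.292. Non-overlap toward lower values was found for 1.16% of all genes in this comparison and for 2 segments, Ighv1-50 and Igkv1-122. Igkv1-122 was 1.79, 0.268, 0.0389 and 0.0678 in controls and listed at 0 in all 4 WTCPM mice (limma adjusted p = 0.672). It reached the threshold only through the first control mouse, with a mean of 0.0421 FPKM without it. Its lower values with WTCPM are therefore partly fixed by the selection. Next by p-value, and not passing, came Ighv1-34, Ighv12-3 and Ighv1-76, with limma adjusted p from 0.740 to 0.894. Ighv1-34 and Ighv12-3 also reached the threshold only through the first control mouse.

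With rosoxacin against WTCPM, 0 of 55 segments passed, against 0.546% of all genes, and 0 had an unadjusted p under 0.05, against 15.7%. The median log2 difference was -0.25 over the segments and -0.16 over all genes. It was -0.10 over the 24 heavy chain segments and -0.48 over the 31 kappa segments, of which 22 had lower and 9 higher fitted values. Of the 2749 genes, 1751 were lower. After median-of-ratios scaling the medians of the chains were -0.05 and -0.43, beside -0.01 over all genes. Whether the chains differ from each other was not tested. Without the first control mouse, whose spread enters the shared fit, 6 segments had an unadjusted p under 0.05, against 18.3% of all genes in that fit, and 0 passed, against 0.873%. The smallest p-value was that of Ighv1-19 (log2 difference -1.37, SE 0.65, adjusted p = 0.317), followed by Igkv6-13, Ighv1-59, Igkv4-81 and Igkv12-44. Igkv4-55 was the only segment whose groups did not overlap, with 0.263, 0.207, 0.618 and 0.139 FPKM with WTCPM and 0.0530, 0.117, 0 and 0 with rosoxacin (adjusted p = 0.356); this occurred for 8.95% of all genes.

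With dexamethasone against WTCPM, 0 of 55 segments passed, as did 0% of all genes, and 4 had an unadjusted p under 0.05, against 5.38%. The median log2 difference was 0.19, with 36 segments higher and 19 lower, against 0.00 over all genes. Of the 2749 genes, 1388 were higher and 1360 lower. Igkv13-84 came first (higher in 4 dexamethasone mice than in 3 of 4 WTCPM mice, adjusted p = 0.861). Ighv1-50 was higher with dexamethasone in non-overlapping groups, as 1.75% of genes were, with a log2 difference of 1.29 (SE 0.46, adjusted p = 0.861). The pseudogene Ighv1-2 was lower with dexamethasone, at 0, 0.0931, 0 and 0 FPKM, than with WTCPM, at 0.135, 0.117, 0.242 and 0.266 (adjusted p = 0.911); 2.33% of genes had such groups. Igkv1-108 and Ighv1-76 were next and did not pass.

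With rosoxacin against control, 1 of 55 segments passed, Ighv1-19, which fell with rosoxacin; among all genes 3.31% passed, and 2.66% with a fall. At an unadjusted p under 0.05 there were 18 segments, all lower, against 19.3% of all genes. The median log2 difference was -0.97, with 52 segments lower, against -0.11 over all genes. Of the 2749 genes, 1607 were lower. As 19 of the segments entered the list only through the first control mouse, the selection partly fixes these counts of lower segments. In the fit without the first control mouse, 38 segments and 1757 of the genes were lower. The median was then -0.61 over the segments, against -0.17 over all genes. In that fit 7 segments had an unadjusted p under 0.05, against 16.9% of all genes, and 0 passed, against 0.400%. With all 27230 loci and genes in the fit, 6 segments passed, against 23.9% of the features. Groups did not overlap for 9 segments, all lower with rosoxacin, 2 heavy and 7 kappa, against 9.02% of all genes. Among these was Igkv1-122, which entered the list only through the first control mouse.

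Ighv1-19 was 2.16, 0.448, 0.526 and 0.805 FPKM in controls and 0, 0, 0 and 0.258 with rosoxacin. All 4 controls were above all 4 rosoxacin mice. The log2 difference was -2.73 (SE 0.65, adjusted p = 0.0331), a value that depends on the pseudocount because 3 rosoxacin mice were at 0. In WTCPM mice it was 0.203, 0, 0.589 and 0.675, and with dexamethasone 0, 0.165, 0.269 and 0. The WTCPM mice overlapped both of the groups compared. In the fit without the first control mouse the log2 difference was -2.30 and the adjusted p 0.110, so the call rests on that mouse, and it was also lost without control mouse 3 (0.0571), control mouse 4 (0.0575) or rosoxacin mouse 1 (0.0796), 2 (0.0682) or 3 (0.0774). With the library number as a covariate the adjusted p was 0.457.

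Next by p-value in that comparison, and not passing, came Ighv1-50 (log2 difference -1.51, SE 0.46, adjusted p = 0.0861), Ighv12-3, Igkv12-44 and Igkv4-59. Ighv12-3 was listed at 0 in all rosoxacin and dexamethasone mice and in 3 WTCPM mice, and had a limma adjusted p of 0.0909. It reached the threshold only through the first control mouse. Igkv4-59, the segment with the largest shared part, was 0.719, 0.425, 0.257 and 0.275 in controls and 0, 0.0678, 0 and 0.219 with rosoxacin (adjusted p = 0.103).

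With dexamethasone against control, 0 of 55 segments passed, against 0.0364% of all genes, and 5 had an unadjusted p under 0.05, all lower, against 4.98%. The fitted values of 44 segments were lower and the median was -0.59, against 0.02 over all genes. Of the 2749 genes, 1315 were lower, and 1454 with the first control mouse left out. Without that mouse 28 segments were lower and 27 higher, and the median was -0.02, so the direction of the set came from that mouse. Ighv1-19 (log2 difference -2.37, SE 0.65) and Igkv4-59 (-1.94, SE 0.56) had the smallest p-values, with an adjusted p of 0.737 for both, and were the 2 segments whose groups did not overlap, against 1.05% of genes. Ighv12-3, Igkv4-71 and Ighv1-34 followed, all of which reached the threshold only through the first control mouse.

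With rosoxacin against dexamethasone, 1 of 55 segments passed, Igkv13-84, lower with rosoxacin; among all genes 4.26% passed. With all 27230 loci and genes in the fit, 2 segments passed, against 29.5% of the features. There were 7 segments with an unadjusted p under 0.05, all lower, against 20.7% of all genes. The median log2 difference was -0.38, against -0.15 over all genes. By chain it was -0.13 for the heavy segments and -0.54 for the kappa segments, of which 25 of 31 were lower. Of the 2749 genes, 1678 were lower. Groups did not overlap for 3 segments that were lower with rosoxacin, against 9.68% of genes, namely Igkv13-84, Ighv1-42 and Igkv4-81. They did not overlap for 1 that was higher, Ighv2-5, against 3.46% of genes.

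Igkv13-84 was listed at 0 in all 4 rosoxacin mice and was 0.535, 0.361, 0.466 and 1.09 FPKM with dexamethasone (0.612 ± 0.324, SD, n = 4), with 4.36 to 14.4 read steps. No fold is given against values of 0, and the adjusted p was 0.0468. In controls it was 0.842, 0.808, 0 and 0, and with WTCPM 0, 0, 0 and 0.533, so 2 controls and 3 WTCPM mice were listed at 0 too. The call was lost on leaving out any of 8 rosoxacin or dexamethasone mice (adjusted p 0.0767 to 0.121), WTCPM mouse 2 (0.0534) or WTCPM mouse 3 (0.0538). With library number as a covariate the adjusted p was 0.573.

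Its near copy Igkv13-85, shown above, was 0, 0.225, 0 and 0 FPKM with rosoxacin and 0.188, 0.164, 0.527 and 0.452 with dexamethasone (adjusted p = 0.123). It was 0.485, 0.315, 0.222 and 0 in controls and 0, 0.216, 0.407 and 0.225 with WTCPM. Reads from the shared part of the copies could have been divided between them, so the family is the safer unit. Ighv1-42 was 0, 0.265, 0 and 0.0213 with rosoxacin and 0.277, 0.532, 0.347 and 0.715 with dexamethasone, with an adjusted p of 0.0949. After leaving out the first control mouse its adjusted p was 0.0395 and that of Igkv13-84 0.0323, so 2 segments passed in that fit, as did 5.60% of all genes. Igkv13-85, Igkv4-81 and Igkv3-2 were next by p-value and did not pass.

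**Figure D5:**
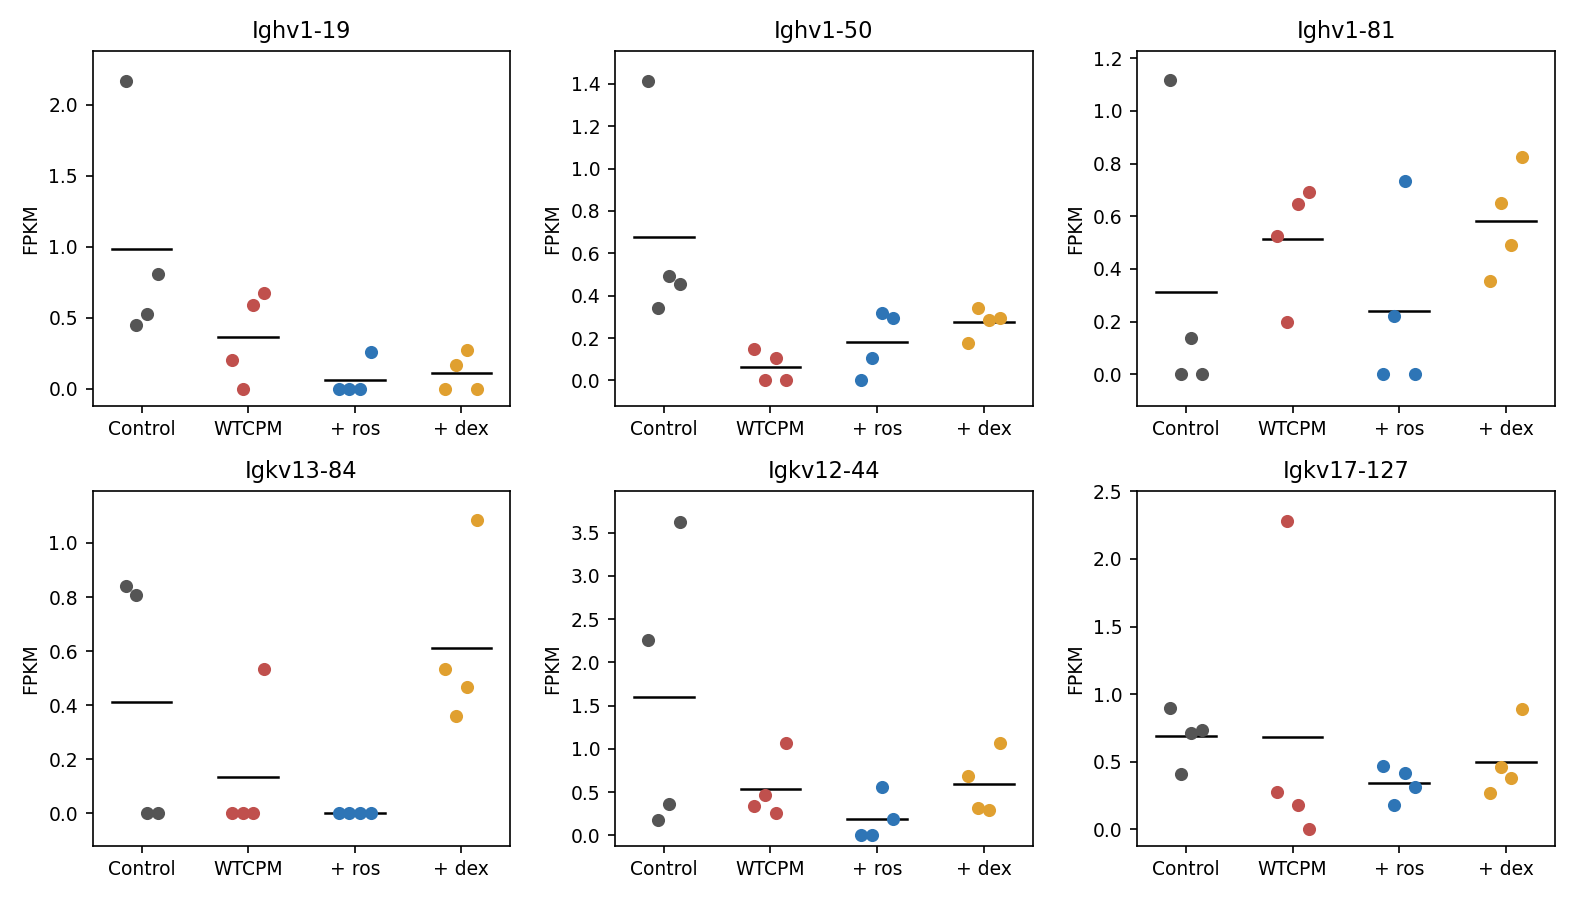
FPKM of 6 segments in each mouse (points) with the group mean (line), on linear axes that differ between panels; ros and dex are WTCPM with rosoxacin and with dexamethasone. Ighv1-19 is 0.448 or more in controls and at most 0.258 with rosoxacin, and Igkv13-84 is at 0 in all 4 rosoxacin mice and in 5 others.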

How the data were processed

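Lung RNA of 16 mice was sequenced in 2 lanes each. The authors deposited FPKM values per transcript, in 1 table of 186512 transcripts and 32 single-library files with the same values. The submitters' processing notes list build mm10 and the tools StringTie 2.1.5, HISAT2 2.2.1, HISAT, SAMtools 1.12, R 4.0.4 and FastQC, without order or settings. Read layout is given ambiguously, as single 50-base and as paired reads.

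Transcripts were summed to genes and lanes averaged. Genes were tested with limma 3.58.1 (R 4.3.3) on log2(FPKM + 0.1), with a variance trend, over the 2749 annotated genes whose mean reached 0.1 FPKM, and Benjamini-Hochberg adjustment. The fit was tested on simulated data first. Read steps were found within a tolerance of 0.2% and are an inference from the values. The segments and gene lists were chosen with earlier results of these data known. Named segments were those that passed a test, the 8 most abundant per chain, the 5 with the smallest p-value per comparison, those above 20% of their chain in a mouse, and those at the threshold; others named (among them Ighv2-3, Ighv2-6-8, Igkv4-55, Ighv2-5 and Igkv1-122) were chosen after their values were seen. The p-values measure the spread between mice. Deviations of same-numbered mice of different groups gave 24 correlations of -0.16 to 0.30 (median 0.03), and the numbers were not treated as pairs. Differently numbered mice were not compared in this way. Alternatives covered the pseudocount, low-value filter, scaling, lanes, transcripts, fit and each mouse left out.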

Additional observations from a re-analysis of the deposited data

Results flagged for a closer look

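In a group of 4 mice a value was marked as standing apart when the gap from the highest or lowest mouse to its nearest neighbour, divided by the group's range, was above Dixon's critical value at 95%. Of 140 groups of values examined, 33 were marked, whereas chance marks about 1 in 20, and a group with 3 mice at 0 and 1 above it is always marked. The segments examined were named for a high mean, a high share, a small p-value or a place at the threshold. The count therefore cannot be read against that rate. Of the 33, 14 were high values of the first control mouse. These were the heavy chain sum (34.3 FPKM), the effective number of heavy chain segments (19), and the FPKM of Ighv1-4 (2.02), Ighv1-42 (1.24), Ighv1-50 (1.42), Ighv1-59 (2.89), Ighv1-81 (1.12), Ighv5-9 (0.896), Ighv8-12 (1.56), Igkv1-122 (1.79), Igkv12-41 (1.97), Igkv14-100 (0.484), Igkv3-2 (3.11) and Igkv6-13 (0.442). Over all 55 segments, 23 stood apart upward in that mouse, and 0 to 6 in each of the others. The selection partly fixes this count, since 19 of the 55 reached the threshold only through that mouse.

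Outside that mouse, Igkv17-127 in WTCPM mouse 2 (2.28 FPKM) and Igkv4-90 in control mouse 4 (2.43) were the highest of the marked values. In the WTCPM group Ighv12-3 in mouse 2 (0.225), Ighv5-9 in mouse 3 (0.0978) and Igkv13-84 in mouse 4 (0.533) stood apart. In the rosoxacin group the marked values were Ighv1-59 in mouse 1 (0.212), Ighv1-42 (0.265), Igkv13-85 (0.225) and Igkv4-81 (0.00714) in mouse 2, Igkv3-12 (0.235) and Igkv4-90 (0.234) in mouse 3, and Ighv1-19 (0.258), Ighv5-9 (0.327), Igkv3-2 (0.157) and Igkv4-71 (0.408) in mouse 4. With dexamethasone they were Ighv5-9 in mouse 1 (0.152), Ighv1-2 in mouse 2 (0.0931), Ighv1-34 in mouse 3 (0.0887) and Igkv4-59 in mouse 4 (0.163).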

How the results depend on the processing

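The count of segments passed with rosoxacin against control, 1 as reported, was 0 with a pseudocount of 1, no filter on low values, median-of-ratios scaling, quantile normalisation, lane 1 only, array quality weights, library number as a covariate, and genes chosen over 15 mice. It was 4 after rescaling to TPM and 6 with all loci and genes in the fit, and 0 to 3 on leaving out 1 mouse. In lane 2 only it was 1, but that segment was Igkv4-59 (adjusted p = 0.0235, limma). Ighv1-19 did not pass in lane 2 only (adjusted p = 0.185, limma). With rosoxacin against dexamethasone, the count of 1 became 0 with a pseudocount of 1, no filter, median-of-ratios scaling, quantile normalisation, either lane alone, no variance trend, library number as a covariate and the replicate block. It was 2 with TPM, with all loci and genes and with genes chosen over 15 mice, and 0 to 2 on leaving out 1 mouse. With dexamethasone against control it was 1 (Igkv4-59) in lane 2 only, and 0 on leaving out any 1 mouse, as in the comparisons of WTCPM with control, rosoxacin with WTCPM and dexamethasone with WTCPM. The replicate block, which treats equal mouse numbers as pairs, left Ighv1-19 at an adjusted p of 0.0418 (limma) and Igkv13-84 at 0.0558. None of the 30 differences with the smallest p-values, 5 per comparison, changed sign under any alternative run; other differences named were not followed across the alternatives. Choosing genes over 15 mice, and dropping the first control mouse from the sums, were added after seeing the data.

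In TPM the heavy sum with dexamethasone was 5.50 and the kappa sum with WTCPM 6.98; with all segments above 0 in any mouse the first was 5.38 FPKM. On leaving out 1 mouse, heavy sums were 3.84 to 14.2 (control), 2.92 to 4.08 (WTCPM), 2.81 to 3.61 (rosoxacin) and 4.13 to 4.71 (dexamethasone), and kappa sums 7.51 to 16.1, 4.75 to 5.87, 2.13 to 2.92 and 5.86 to 7.32. The effective number of heavy segments, 12.9, 10.04, 8.80 and 11.3 as group means in that order, was 6.68 and 6.69 (WTCPM), 5.21 and 6.03 (rosoxacin) and 9.24 and 7.07 (dexamethasone) in single lanes, and 19.9, 14.8, 12.9 and 15.7 with all segments above 0. For kappa it was 5.00 and 5.86 (rosoxacin) and 11.2 and 8.70 (dexamethasone) in single lanes, and 16.3 (dexamethasone) with all segments. Single lanes hold fewer reads and the wider list more segments. The cause of the other shifts was not tested. Depth limits single segments: most rest on a few reads per mouse, in 1 of 2 lanes.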
